A study of Mus musculus with 6 samples.

Results

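The cytosolic ribosomal protein genes were described in bulk RNA-seq of tail tendon from wild-type (WT) mice and from mice lacking *Mkx*, a homeobox transcription factor of tendon cells. They were taken as all symbols formed from Rps or Rpl with a number and at most 1 letter, plus *Rpsa*, *Rplp0*, *Rplp1* and *Rplp2*, which gave 82 of the 44788 symbols in the table: 50 of the large subunit and 32 of the small subunit. There were 3 WT and 3 *Mkx*-/- libraries from C57BL/6 mice, labelled as 3 weeks old (the methods of the study give an older age), with no other allele or treatment named. Totals ran from 10835070 to 14160301 counts per library. The labels do not say whether each library was made from 1 animal or from pooled animals, so p-values measure only the spread between these libraries.

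A ribosome is built from ribosomal RNA and from ribosomal proteins, with one copy of nearly every protein per particle. The small subunit reads the messenger RNA, the large subunit joins amino acids, and the stalk formed by Rplp0, Rplp1 and Rplp2 recruits translation factors. Most of these messenger RNAs start with a run of pyrimidines, the 5′ terminal oligopyrimidine (TOP) motif, through which mTORC1 sets their translation. The genes have also been copied back into the genome many times as intronless retrocopies, most of them pseudogenes. In tendon, where cells export large amounts of collagen, ribosomes sit largely on the endoplasmic reticulum.

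*Mkx* itself had 1825, 1381 and 1685 counts in WT and 620, 589 and 491 counts in *Mkx*-/-, so reads assigned to the gene remained in each mutant library, and which part of the gene they covered cannot be read from the counts. The WT 3 library carried *Ddx3y* (301 counts) and almost no *Xist* (1 count), whereas the other 5 libraries had 0 *Ddx3y* counts and 1289 to 1866 *Xist* counts. The tendon matrix genes *Col1a1*, *Col1a2* and *Sparc* took 42.0% to 48.5% of WT counts and 28.3% to 34.8% of *Mkx*-/- counts. The list of 11 tendon genes that holds them was split, with 4 higher and 7 lower in *Mkx*-/- (median log2 fold change -0.03). In edgeR, 1 of the 11 passed an adjusted p of 0.05, higher in *Mkx*-/- (9.09%, beside 3.18% of all genes). Markers of other cells also moved with genotype: summed normalized CPM (counts scaled to a common library size with TMM factors) of 18 skeletal muscle genes was 109 to 471 in WT and 648 to 3341 in *Mkx*-/-, of 12 endothelial genes 85.3 to 102 and 145 to 220, and of 12 leukocyte genes 640 to 681 and 412 to 507. The sum of 8 Schwann cell genes was 8305 to 10960 in WT and 12892 to 23848 in *Mkx*-/-. Each of the 8 was higher at an unadjusted p under 0.05 by edgeR (100%, beside 12.5% of all genes). None of the 8 passed an adjusted p of 0.05. The sum of 8 keratinocyte genes was 4.49 to 16.5 in WT and 27.2 to 35.9 in *Mkx*-/-. The erythroid sum stood apart in the WT 1 library, at 455 against 52.1 to 104 in the others. No gene of the skeletal muscle, endothelial, leukocyte and Schwann cell lists was at 0 in every library. Their part in the values below was not tested, and in bulk tissue fewer cells of a type and less RNA per cell cannot be told apart.

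The summed level of the 82 genes depended on the scale. Their summed normalized CPM was 6195, 7109 and 6673 in WT and 6468, 6166 and 6385 in *Mkx*-/- tendons, a log2 difference of -0.07 (6659 ± 457 against 6339 ± 156, SD, n = 3 per group, two-sided exact permutation p = 0.3). The groups overlapped on this scale, since the WT 1 library was within the range of the mutants. As a share of all counts the same genes made up 0.622%, 0.614% and 0.588% in WT and 0.652%, 0.695% and 0.728% in *Mkx*-/-, a log2 difference of 0.18, and every mutant library lay above every WT library. As a share of the counts outside *Col1a1*, *Col1a2* and *Sparc* they made up 1.07%, 1.19% and 1.14% in WT and 0.999%, 0.970% and 1.02% in *Mkx*-/-, a log2 difference of -0.19, and every mutant library lay below every WT library. The exact permutation p was 0.1 on each of the latter scales, the smallest that 3 against 3 libraries allow. The direction of the summed level is therefore not fixed by these counts. With library size alone as the scale, the median log2 fold change of all genes moved from -0.0037 to 0.25 and that of the ribosomal protein genes from -0.05 to 0.21.

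**Figure D1:**
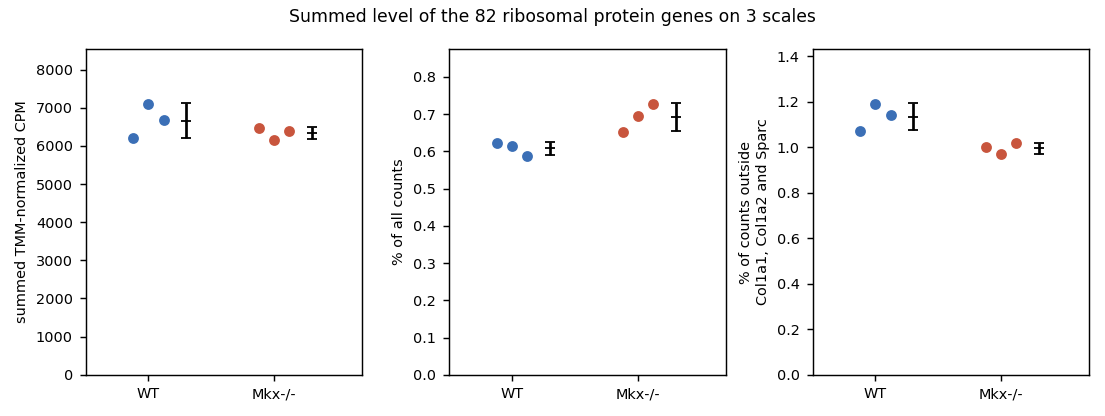
Summed level of the 82 ribosomal protein genes in the 3 WT (blue) and 3 *Mkx*-/- (red) libraries, as TMM-normalized CPM, as a percentage of all counts and as a percentage of counts outside *Col1a1*, *Col1a2* and *Sparc*. Points are libraries and bars are the mean ± SD. The mutant libraries overlap WT in the first panel, lie above it in the second (0.652% to 0.728% against 0.588% to 0.622%) and lie below it in the third (0.970% to 1.02% against 1.07% to 1.19%).

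Gene by gene, the ribosomal protein genes differed little between the genotypes. Of the 82, 79 passed the filter on low counts. *Rpl10l*, a testis-expressed copy of *Rpl10*, and *Rpl32p* had 0 counts in every library, and *Rpl39l*, a testis-expressed copy of *Rpl39*, had 2, 0 and 1 counts in WT and 1, 0 and 0 in *Mkx*-/-. None of the 79 passed an adjusted p of 0.05 in edgeR's quasi-likelihood test with Benjamini-Hochberg adjustment over 14550 genes, where 5.44% of all genes passed, 3.18% higher and 2.26% lower in *Mkx*-/-, and none was up- or downregulated with the further limit of a log2 fold change of 1 (1.89% and 1.33% of all genes). At an unadjusted p under 0.05 there were 8 (10.1%), 6 lower and 2 higher in *Mkx*-/-, beside 22.6% of all genes. The WT and mutant libraries did not overlap for 18 of the 79 (22.8%), 13 of them lower and 5 higher in the mutants, beside 28.2% of all genes. DESeq2 called 1 of the 79, *Rps4x*.

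The fold changes were small in size. The median log2 fold change was -0.05 (interquartile range -0.19 to 0.06), beside -0.0037 for all genes tested, and 50 of the 79 (63.3%) were below 0, beside 50.5% of all genes. The median absolute log2 fold change was 0.12 against 0.24 for all genes, and 76 of the 79 were within 0.5 of 0. The 95% interval lay within 1 log2 unit of 0 for 73 of the 79, beside 69% of all genes. The exceptions were *Rpl3l*, *Rpl17*, *Rpl29*, *Rpl30*, *Rpl34* and *Rps13*, whose intervals reached further. The libraries of a group were also close to each other: the median within-group SD on the log2 scale was 0.15 for the 79 and 0.22 for all genes. The genes compared with were not matched to the 79 by level. The part of level in these differences was not tested.

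**Figure D2:**
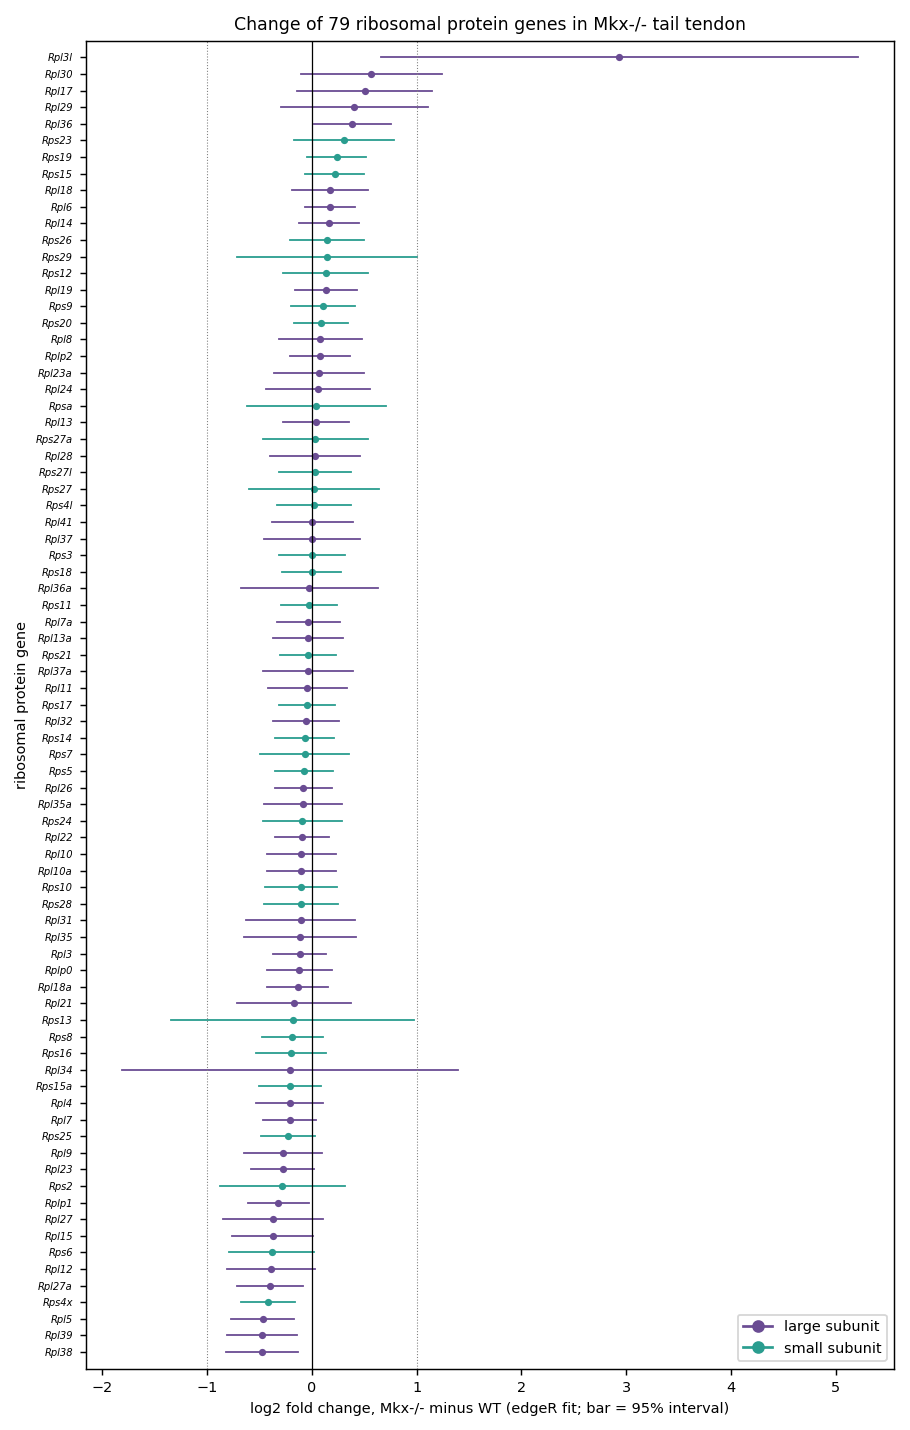
Log2 fold change (x axis, *Mkx*-/- minus WT) of the 79 ribosomal protein genes tested (y axis), with the 95% interval of edgeR's fit as a bar, in purple for the large and green for the small subunit. Dotted lines mark a log2 fold change of 1 in either direction. Apart from *Rpl3l* at 2.93, the points lie between -0.48 and 0.57.

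The level per gene spanned a wide range. Per kilobase of exon, *Rplp0*, the base of the stalk, had the highest normalized CPM, 780 as the mean of the 6 libraries, and was followed by *Rps15* (444), *Rpl4* (439), *Rplp1* (402), *Rpl8* (388) and *Rpl32* (328). The lowest of the 77 tested genes with an exon length were *Rpl30* (0.942), *Rpl24* (1.03), *Rpl36a* (1.22), *Rpl3l* (1.24), *Rpl21* (1.26) and *Rpl11* (2.31), and the median was 14.2. The highest value was 828 times the lowest. These levels rest on the combined length of all annotated exons, such as 6029 bases for *Rpl24*, 3400 for *Rpl21*, 3020 for *Rpl30* and 652 for *Rps15*. They also leave out reads assigned to retrocopies. Of the counts of gene plus retrocopies, *Rpl36a* held 3.80%, *Rpl11* 3.85%, *Rpl24* 8.17%, *Rpl30* 10.1%, *Rpl21* 30.8% and *Rpl3l* 100%. The genes named as highest held 60.8% (*Rplp1*) to 100% (*Rpl4* and *Rpl8*). How much of the range comes from this was not tested. *Rplp0* alone took 19.9% of the counts of all 82 genes, and the 6 with the most counts took 48.2%.

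The stalk genes did not pass the test. *Rplp0* had normalized CPM of 1313, 1364 and 1367 in WT and 1300, 1151 and 1271 in *Mkx*-/- (log2 fold change -0.12, SE 0.13, adjusted p = 0.652 by edgeR's quasi-likelihood test). Every mutant library was below every WT library by a margin smaller than the spread of the mutants, and with library size alone the direction turned (log2 fold change 0.13). *Rplp1*, one of the acidic proteins that form the tip of the stalk, had 201, 217 and 244 in WT and 183, 183 and 165 in *Mkx*-/- (log2 fold change -0.32, SE 0.13, adjusted p = 0.181 by edgeR). The groups were apart by less than the spread of the WT libraries. *Rplp2*, its partner, had 21.0, 21.2 and 23.2 in WT and 23.7, 20.4 and 24.7 in *Mkx*-/-, with the groups overlapping (log2 fold change 0.07, 95% interval -0.21 to 0.36).

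Among the small subunit genes, *Rps4x* had the smallest p of all 79. It is X-linked and encodes a core protein of the small subunit (mm9, chrX:99380280-99384733, minus strand). Its normalized CPM was 128, 140 and 144 in WT and 104, 107 and 98.7 in *Mkx*-/- (log2 fold change -0.42, SE 0.11, adjusted p = 0.0724 by edgeR). The lowest WT library was above the highest mutant library. DESeq2 gave an adjusted p of 0.0242 for it, and a library size counted outside *Col1a1*, *Col1a2* and *Sparc* gave 0.0321 in edgeR, whereas library size alone gave a log2 fold change of -0.16 and an adjusted p of 0.450. *Rps4x* held 53.4% of the counts of gene plus retrocopies. With all its retrocopies added, its log2 fold change was -0.35 (adjusted p = 0.135 by edgeR). The other X-linked members were *Rpl39*, *Rpl10* and *Rpl36a*. *Rpl10*, which sits at the joining face of the subunits, had 12.7 to 13.6 in WT and 10.7 to 13.8 in *Mkx*-/-, and *Rpl36a* had 1.77 to 2.36 and 1.56 to 2.32, with overlap for both. The *Xist*-poor WT 3 library held the highest WT value of *Rps4x* and *Rpl39* and a middle one of *Rpl10* and *Rpl36a*.

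*Rps19*, the gene most often mutated in Diamond-Blackfan anaemia, had 68.5, 86.0 and 78.3 in WT and 87.5, 92.3 and 94.5 in *Mkx*-/- (log2 fold change 0.24, adjusted p = 0.304 by edgeR). *Rps15*, of the head of the small subunit, had 249, 292 and 261 in WT and 309, 299 and 326 in *Mkx*-/- (log2 fold change 0.22, adjusted p = 0.343). Both were higher in every mutant library, by margins smaller than the WT range, and with library size alone their adjusted p was 0.0508 and 0.0534. *Rps6*, the target of S6 kinase, had 18.4, 18.7 and 19.5 in WT and 16.3, 10.8 and 16.4 in *Mkx*-/-, and the Mkx-/- 2 library was low while the others were near each other (log2 fold change -0.38, adjusted p = 0.245, and -0.24 with all its retrocopies added). *Rps27l*, the p53-inducible copy of *Rps27*, had 14.4 to 19.2 in WT and 15.5 to 17.0 in *Mkx*-/-, and *Rps27* had 2.36 to 3.44 and 2.29 to 3.44. *Rps4l*, an autosomal copy of *Rps4x*, had 15.4 to 17.8 in WT and 14.1 to 19.0 in *Mkx*-/-, so the 3 copies had overlapping groups.

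Among the large subunit genes lower in *Mkx*-/-, *Rpl5* came first by p. With *Rpl11* and the 5S RNA it forms the particle that can bind Mdm2. It had 24.9, 25.7 and 29.96 in WT and 21.3, 17.9 and 19.0 in *Mkx*-/- (log2 fold change -0.47, SE 0.13, adjusted p = 0.0781 by edgeR), so that all 3 mutant libraries were below WT. *Rpl11* had 6.07, 6.09 and 6.81 in WT and 6.50, 5.97 and 5.95 in *Mkx*-/- (log2 fold change -0.04, 95% interval -0.42 to 0.33), and its groups overlapped. A library size counted outside *Col1a1*, *Col1a2* and *Sparc* gave *Rpl5* an adjusted p of 0.0392.

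*Rpl39*, a small protein at the exit tunnel, had 38.1, 32.1 and 45.5 in WT and 29.1, 27.3 and 26.9 in *Mkx*-/- (log2 fold change -0.48, SE 0.15, adjusted p = 0.101 by edgeR). *Rpl38*, whose loss in the Tail-short mouse alters the axial skeleton, had 15.3, 13.4 and 14.3 in WT and 9.71, 11.8 and 9.27 in *Mkx*-/- (log2 fold change -0.48, SE 0.15, adjusted p = 0.102). For both, each mutant library was below each WT library, and the mutant libraries of *Rpl39* were closer to each other than the WT libraries. *Rpl27a*, a protein of the large subunit, had 21.9, 29.6 and 26.0 in WT and 19.6, 19.2 and 19.9 in *Mkx*-/- (log2 fold change -0.40, SE 0.14, adjusted p = 0.131). Without the WT 1 library, the WT library nearest to the mutants, its adjusted p was 0.0492. The gene held 14.1% of the counts of its family, and with all its retrocopies added the log2 fold change was -0.14 (adjusted p = 0.633 by edgeR).

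The large subunit genes with the smallest p in the other direction were low in level. *Rpl36*, a small protein on the outer face of the subunit, had 11.3, 9.62 and 8.41 in WT and 13.4, 11.7 and 13.3 in *Mkx*-/- (log2 fold change 0.39, SE 0.16, adjusted p = 0.199 by edgeR). The groups were apart, but the log2 fold change was -0.0059 with the named pseudogenes of *Rpl36* added and 0.05 with all its retrocopies added. *Rpl30* had 2.21, 2.16 and 2.48 in WT and 4.67, 3.09 and 2.46 in *Mkx*-/-, and only the Mkx-/- 1 library was far from WT (log2 fold change 0.57, 0.02 with all its retrocopies added). *Rpl17* had 1.58, 1.77 and 2.24 in WT and 2.93, 2.11 and 2.93 in *Mkx*-/-, with the Mkx-/- 2 library inside the WT range (log2 fold change 0.50, adjusted p = 0.336).

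*Rpl3l*, the copy of *Rpl3* used by skeletal and heart muscle in place of it, had the largest fold change. It had 7, 0 and 9 counts in WT and 87, 26 and 10 in *Mkx*-/-, which is 0.551, 0 and 0.721 normalized CPM against 7.97, 1.83 and 0.793 (log2 fold change 2.93, SE 0.99, adjusted p = 0.1247 by edgeR). The Mkx-/- 1 library was far above the rest and the Mkx-/- 3 library was next to WT. Summed normalized CPM of the 18 skeletal muscle markers followed the same order within the mutants, at 3341, 1614 and 648, and was 471, 109 and 314 in WT, where the library without *Rpl3l* was also the lowest. Of these markers 17 were higher in *Mkx*-/-, with a median log2 fold change of 2.90. Without the Mkx-/- 1 library the log2 fold change of *Rpl3l* was 1.54. With a filter of 1 count in any library *Rpl3l* was called (adjusted p = 0.0129), and with a filter of 10 counts in every library it was not tested. *Rpl3*, the parent gene that lines the peptidyl transferase centre, had 33.9, 36.7 and 33.3 in WT and 30.3, 33.2 and 32.2 in *Mkx*-/- (log2 fold change -0.12, 95% interval -0.38 to 0.14).

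**Figure D3:**
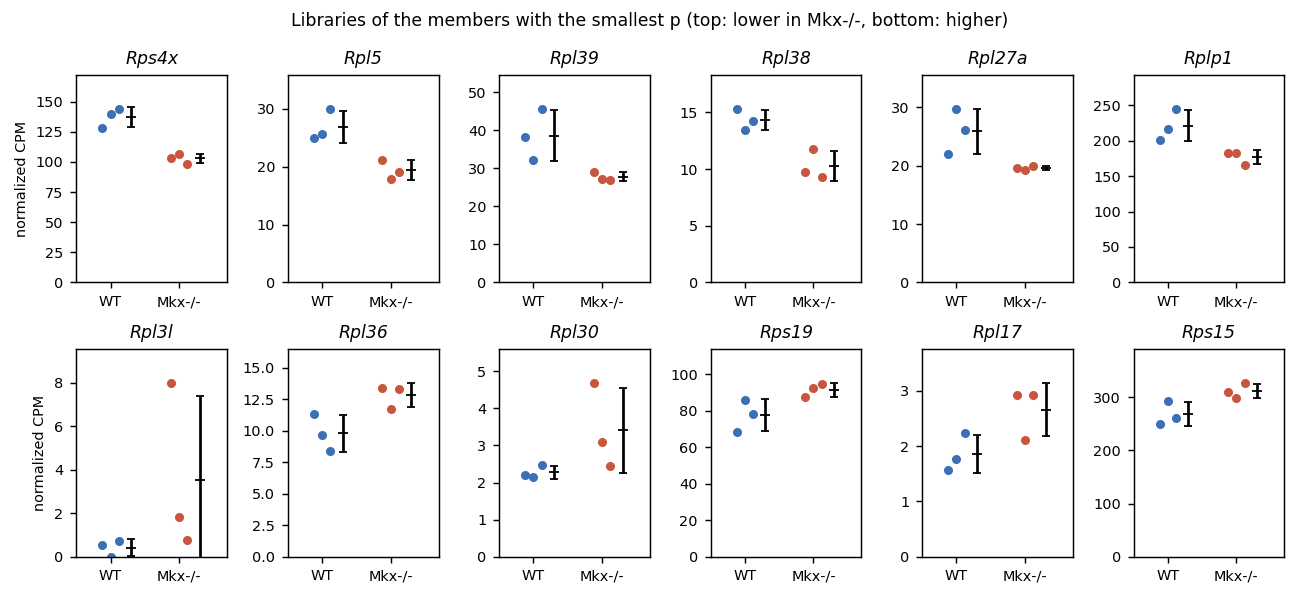
Normalized CPM (y axes, starting at 0) of the 6 ribosomal protein genes with the smallest p in each direction, lower (top) and higher (bottom) in *Mkx*-/-. Points are the 3 WT (blue) and 3 *Mkx*-/- (red) libraries and bars are the mean ± SD, cut at 0 for *Rpl3l*. The groups do not overlap for the 6 genes at the top, whereas *Rpl30* and *Rpl17* at the bottom overlap.

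The balance of the subunits was measured as the counts of all large subunit genes over those of all small subunit genes. It was 1.75, 1.80 and 1.78 in WT and 1.72, 1.60 and 1.68 in *Mkx*-/- (1.78 ± 0.0279 against 1.67 ± 0.0597, SD, n = 3, two-sided exact permutation p = 0.1). This ratio does not depend on how the libraries were scaled, and every mutant library was below every WT library. It stayed apart without *Rpsa* (1.88, 1.87 and 1.85 against 1.79, 1.73 and 1.75) and with all retrocopies added (1.94, 1.98 and 1.94 against 1.89, 1.87 and 1.85), both with an exact permutation p of 0.1. Without *Rplp0* the ratio was 1.16, 1.26 and 1.21 against 1.17, 1.12 and 1.15 (exact permutation p = 0.2), and without *Rplp0* and *Rpl4* 0.900, 0.976 and 0.927 against 0.914, 0.892 and 0.902 (p = 0.3), with overlap in both. The library size was then set to the summed count of the 82 genes, so that each gene was read as its share of them. On that scale 0 of the 79 passed an adjusted p of 0.05 by edgeR, beside 5.45% of all genes. By p, the shares lower in *Mkx*-/- were led by *Rpl5*, *Rps4x*, *Rpl27a* and *Rpl39* and the shares higher by *Rpl3l*, *Rps19*, *Rps15* and *Rpl36*. *Rpl5* made up 0.402%, 0.362% and 0.449% of these counts in WT and 0.329%, 0.291% and 0.298% in *Mkx*-/-. *Rps15* made up 4.02%, 4.11% and 3.91% in WT and 4.78%, 4.85% and 5.10% in *Mkx*-/-.

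Nearly as many counts were assigned to retrocopies of these genes as to the genes. By name or by sequence, 708 symbols were matched to the 82 genes, 576 of them by alignment of the mm9 sequence (at least 80% identity over 100 bases), and 620 had counts. They held 47.8%, 48.2% and 48.7% of the counts of genes plus retrocopies in WT and 48.5%, 47.5% and 48.5% in *Mkx*-/- (48.2% ± 0.434 against 48.1% ± 0.585, SD, n = 3, two-sided exact permutation p = 0.8), so the groups overlapped. Of the aligned retrocopies, the 163 with at least 98% identity held 89.9% of the counts. Of the 79 genes, 53 held under 50% of the counts of their own family, 33 under 20% and 13 under 10%, whereas 15 held over 90%. *Rps29* held 2.92%, *Rpl28* 3.31%, *Rpl36a* and *Rps27a* 3.80%, *Rpl11* 3.85% and *Rpl34* 4.84%, while *Rpl4*, *Rpl8*, *Rps3* and *Rps21* had no retrocopy with counts. *Rpl41* (100%) and *Rps4l* (99.2%) are also among the 15. They had no record in the annotation used for the alignment, so retrocopies could be matched to them by name only. Their shares may therefore be too high. For the genes with a low share, the count of the gene is therefore a small part of the reads that fit its sequence, and levels compared between genes carry this limit.

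**Figure D4:**
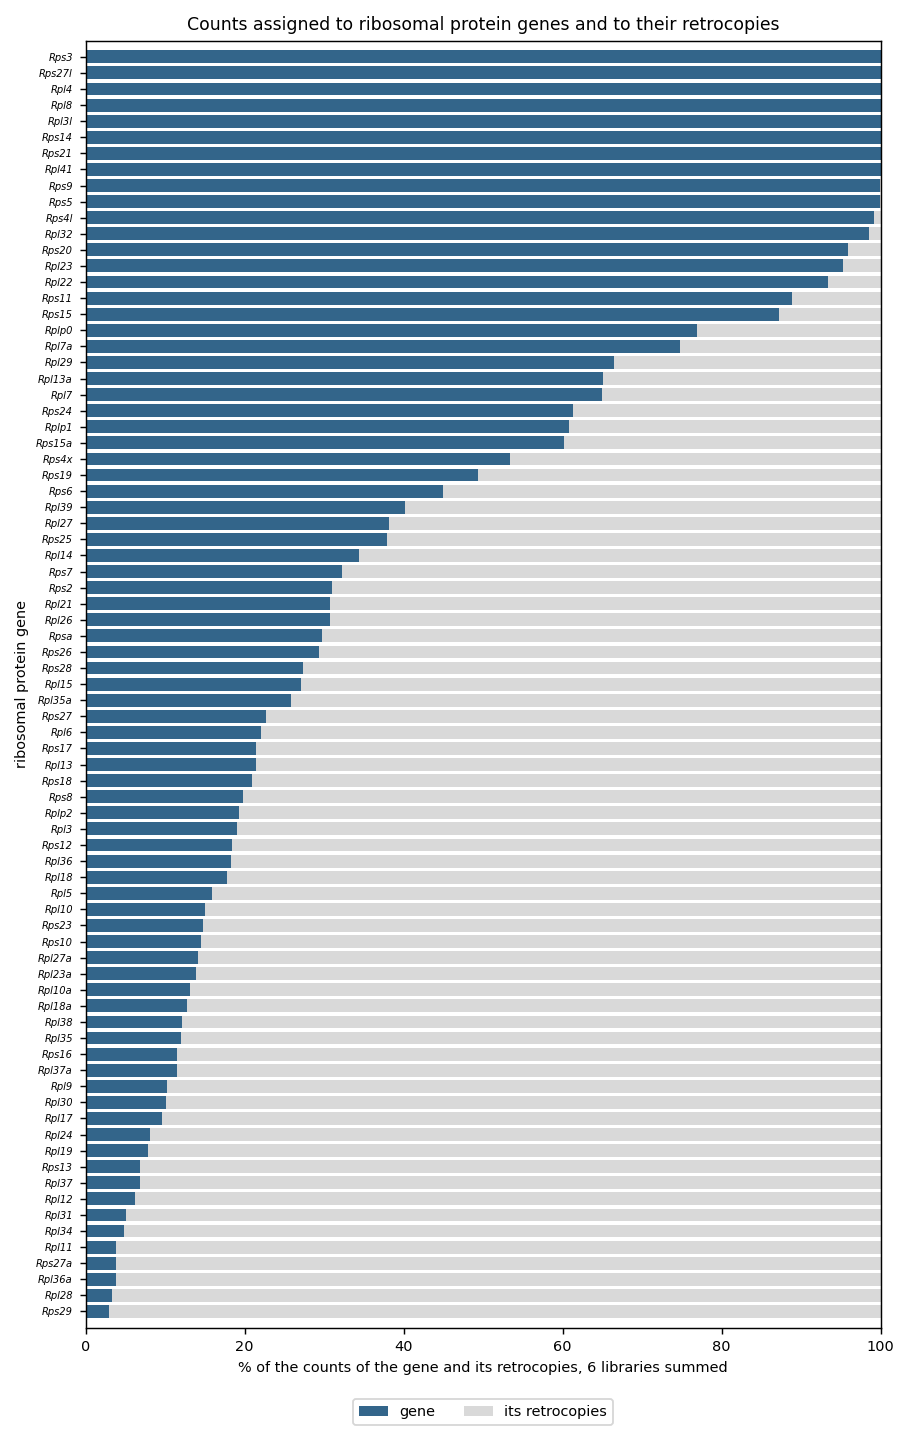
Share of the counts of each gene and its retrocopies (x axis, percent, 6 libraries summed) that was assigned to the gene (blue) and to the retrocopies (grey), for the 79 genes tested. The share of the gene runs from 2.92% in *Rps29* to 100% in *Rpl4*, with a median of 27.1%. For *Rpl41* and *Rps4l* retrocopies could be matched by name only.

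The sequences show how close the copies are. *Rpsa*, which encodes a small subunit protein also known as the laminin receptor precursor (mm9, chr9:120036884-120041487, plus strand), and its intronless copy *Rpsa-ps10* (chr3:149735554-149736584, minus strand, annotated as protein-coding) shared 882 of 888 coding bases, with 350 in a row. *Rpl19*, of the large subunit, and *Rpl19-ps11* (chr8:19492906-19493623, plus strand) shared 590 of 591. *Rpl34*, also of the large subunit, and *Rpl34-ps1* (chr6:71074583-71074994, plus strand) shared 352 of 354. For *Rpl28*, *Rpl10a*, *Rps16*, *Rpl5* and *Rpl27a*, a copy with counts was identical over the whole coding sequence, so a read lying within 1 coding exon of those genes could not be placed by sequence. The stretches below are 90 bases from the mm9 genome. For each pair, the first stretch within 1 exon that held the most differences was taken. They are shown because the counts of these pairs split differently between libraries or lay mostly on the copy. Capitals mark the bases that differ.
Rpsa, chr9:120038276-120038365, plus strand: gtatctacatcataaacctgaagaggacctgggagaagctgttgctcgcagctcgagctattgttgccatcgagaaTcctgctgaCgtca
Rpsa-ps10, chr3:149736284-149736373, minus strand: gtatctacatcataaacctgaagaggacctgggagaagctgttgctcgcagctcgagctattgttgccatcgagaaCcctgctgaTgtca
Rpl19, chr11:97889660-97889749, plus strand: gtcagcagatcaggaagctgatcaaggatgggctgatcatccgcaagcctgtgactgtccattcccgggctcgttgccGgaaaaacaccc
Rpl19-ps11, chr8:19493048-19493137, plus strand: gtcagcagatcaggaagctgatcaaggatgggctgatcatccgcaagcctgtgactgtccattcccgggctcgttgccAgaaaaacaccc
Rpl34, chr3:130431979-130432068, minus strand: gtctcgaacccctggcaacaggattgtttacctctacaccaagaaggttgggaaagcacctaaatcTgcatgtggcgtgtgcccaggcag
Rpl34-ps1, chr6:71074669-71074758, plus strand: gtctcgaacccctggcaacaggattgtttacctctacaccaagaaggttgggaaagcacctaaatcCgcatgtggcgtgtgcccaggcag

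Counted from 1 at the first coding base, with the base of the gene first, *Rpsa-ps10* differed from *Rpsa* by C25A, T210C, C219T, C345G, C696T and G858A, of which the stretch shows T210C and C219T. *Rpl19-ps11* differed from *Rpl19* by G191A, and *Rpl34-ps1* from *Rpl34* by T132C and C318G.

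The split between *Rpsa* and *Rpsa-ps10* differed between libraries of the same genotype. *Rpsa* had 2101, 995 and 1121 counts in WT and 1043, 2396 and 1254 in *Mkx*-/-. *Rpsa-ps10* had 1420, 2844 and 3290 counts in WT and 3025, 1564 and 3320 in *Mkx*-/-. The WT 1 and Mkx-/- 2 libraries were thus high on the gene and low on the copy, with 59.7% and 60.5% of the pair on *Rpsa*, where the other 4 libraries had 25.4% to 27.4%. The sum of the pair was 3521, 3839 and 4411 in WT and 4068, 3960 and 4574 in *Mkx*-/-, a narrower range than either symbol alone. In edgeR's fit the log2 fold change of *Rpsa* was 0.04 (95% interval -0.62 to 0.71), and with all its retrocopies added it was -0.00073.

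**Figure D5:**
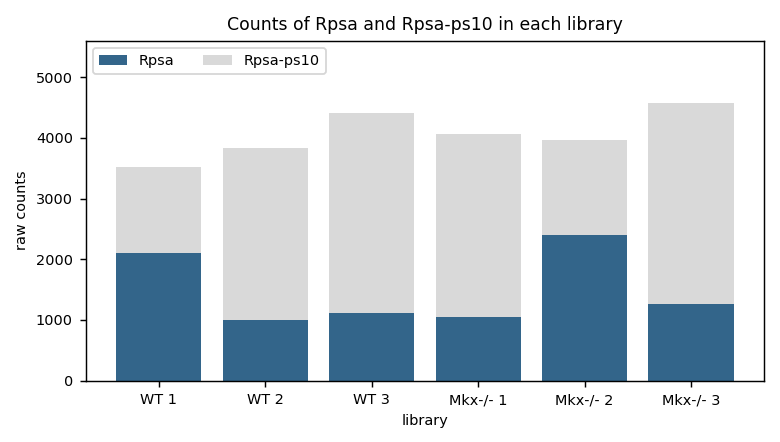
Raw counts (y axis) of *Rpsa* (blue) and *Rpsa-ps10* (grey), stacked, in each of the 6 libraries (x axis). The WT 1 and Mkx-/- 2 libraries have 2101 and 2396 counts on *Rpsa*, against 995 to 1254 in the other 4.

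The same libraries were high on *Rpl34*, with 10.1% of the counts of *Rpl34* and *Rpl34-ps1* on the gene in WT 1 and 6.99% in Mkx-/- 2, where the other 4 libraries had 2.28% to 3.35%. *Rpl19* was steady, with 8.38% to 10.6% of the pair on the gene in WT and 8.63% to 10.7% in *Mkx*-/-. *Rpl29*, of the large subunit, had 18.8, 10.5 and 11.5 normalized CPM in WT and 16.5, 25.6 and 12.1 in *Mkx*-/-, again with WT 1 and Mkx-/- 2 the highest of their groups. In all, 10 of the 79 genes varied by more than 1.7 times between libraries of 1 genotype, among them *Rpsa*, *Rpl34*, *Rpl29*, *Rps13* and *Rpl3l*, and 1 of 79, *Rpl3l*, did so when all retrocopies were added.

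Adding the retrocopies left the comparison of the genotypes without calls. No family of the 79 passed an adjusted p of 0.05 in edgeR, beside 5.44% of all genes in the main fit. The smallest was that of *Rpl5* (0.0891). At an unadjusted p under 0.05 there were 9 of the 79, beside 22.6% of all genes in the main fit. The family values of *Rpl5* were 150, 161 and 188 normalized CPM in WT and 129, 116 and 125 in *Mkx*-/- (log2 fold change -0.43). Most of them came from *Gm15500*, a copy identical to *Rpl5* in coding sequence, at 102, 114 and 130 in WT and 87.5, 83.3 and 84.6 in *Mkx*-/-. Both symbols were thus lower in every mutant library. Reads within a coding exon cannot be placed between them by sequence, so they are not separate observations. The family of *Rpl28* went the other way from most, at 105, 126 and 112 in WT and 148, 138 and 156 in *Mkx*-/- (log2 fold change 0.37, adjusted p = 0.119), while *Rpl28* alone had 4.18 to 4.41 and 4.03 to 4.68. Tested by themselves, 256 retrocopies passed the filter, 0 passed an adjusted p of 0.05 by edgeR and 16 (6.25%) had an unadjusted p under 0.05, 12 of them lower and 4 higher, beside 22.6% of all genes.

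The start sites were read for runs of C and T as found in TOP messenger RNAs. Windows of 30 bases, 15 on either side of the RefSeq start (GRCm38.p6), were found for 60 of the 82 genes, and 34 (56.7%) held an unbroken run of at least 6 C or T on the sense strand, beside 29.1% of the 27025 symbols with a window. The longest was 21 bases, in *Rpl7a*. A run was counted anywhere in the window, also before the start, so it does not show that the messenger RNA begins with a TOP motif. The windows of *Rpl7a* and *Rpl27a*, with the longest runs, and of *Rpl15* are shown beside those of *Rps4x* and *Rpl5*, the genes with the smallest p, with the longest run in capitals.
Rpl7a: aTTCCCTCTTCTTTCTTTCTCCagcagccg
Rpl27a: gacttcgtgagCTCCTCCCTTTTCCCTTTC
Rpl15: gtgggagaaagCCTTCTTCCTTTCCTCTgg
Rps4x: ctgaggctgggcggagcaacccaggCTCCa
Rpl5: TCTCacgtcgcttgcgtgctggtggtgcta

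The genes with and without a run had similar medians, but this split does not separate TOP from other messenger RNAs. The median log2 fold change was -0.04 for the 33 tested genes with a run and -0.08 for the 25 without. *Rps4x* and *Rpl5*, with the smallest p, had runs of 4 bases. *Rpl39*, *Rpl38* and *Rpl27a*, the next by p among the genes lower in *Mkx*-/-, had runs of 8, 10 and 19. *Rpl7a* had 30.3, 29.9 and 25.2 normalized CPM in WT and 26.8, 25.9 and 30.6 in *Mkx*-/-, with full overlap. *Rpl15*, with a run of 17, had 12.1, 16.6 and 14.0 in WT and 10.5, 9.91 and 12.4 in *Mkx*-/- (log2 fold change -0.37, adjusted p = 0.238 by edgeR), and the Mkx-/- 3 library was above the lowest WT library. With all its retrocopies added the log2 fold change was -0.12 (adjusted p = 0.648).

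Genes that work with the ribosomal proteins were counted by list. Of 15 translation factors with TOP messenger RNAs, 11 (73.3%) had a log2 fold change below 0, beside 50.5% of all genes (median -0.10). None of the 15 passed an adjusted p of 0.05 by edgeR, as 5.44% of all genes did. Whether this list as a set differs from all genes was not tested. *Tpt1*, which encodes translationally controlled tumour protein, came closest, at 52.0, 53.6 and 58.5 in WT and 34.3, 37.5 and 43.2 in *Mkx*-/- (log2 fold change -0.51, adjusted p = 0.0583 by edgeR), with no overlap. It passed with DESeq2 (0.0195), with library size counted outside *Col1a1*, *Col1a2* and *Sparc* (0.0341) and without WT 1 (0.0466), and with library size alone it had 0.342. *Eef2*, the translocase of elongation, had 2457, 3124 and 2829 in WT and 2526, 2333 and 2256 in *Mkx*-/-, with overlap. None of the 8 ribosomal protein genes outside the naming rule passed, and *Gnb2l1*, which encodes the small subunit protein RACK1, had 466 to 555 in WT and 506 to 559 in *Mkx*-/-. None of the 76 mitochondrial ribosomal protein genes passed, and none of 6 dedicated chaperones of ribosomal proteins did. Of the 76, 46 (60.5%) were above 0, beside 49.5% of all genes, and 30 were below (median 0.02).

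Of 37 ribosome biogenesis genes, 1 rose (2.70%, beside 3.18% of all genes), which was *Polr1a*, the largest subunit of RNA polymerase I. It had 19.1, 15.1 and 13.7 in WT and 31.9, 28.9 and 27.7 in *Mkx*-/- (log2 fold change 0.88, SE 0.15, adjusted p = 0.0174 by edgeR). Its partner subunit *Polr1b* had 14.3, 13.3 and 11.8 in WT and 9.07, 10.3 and 8.56 in *Mkx*-/- (log2 fold change -0.50, adjusted p = 0.0987), so the groups were apart in the opposite direction. Of 21 genes of mTORC1 and MYC control, 1 fell (4.76%, beside 2.26% of all genes), which was *Ddit4*, an inhibitor of mTORC1. It had 333, 224 and 153 in WT and 81.3, 92.6 and 48.3 in *Mkx*-/- (log2 fold change -1.68, SE 0.32, adjusted p = 0.0247). *Myc*, a driver of ribosome production, had 14.8, 15.8 and 9.85 in WT and 9.53, 7.87 and 8.01 in *Mkx*-/- (adjusted p = 0.0977), and *Mtor* had 68.5, 73.6 and 80.4 against 60.9, 59.7 and 47.4 (adjusted p = 0.124). Of 10 genes of the p53 checkpoint that free ribosomal proteins can trigger, 8 had a log2 fold change above 0 (80%, beside 49.5% of all genes) and 1 rose (10%, beside 3.18%), which was *Zmat3*, a p53 target. Each list thus held 1 call. At an unadjusted p under 0.05 by edgeR there were 5 of the 10 checkpoint genes (50%), 4 higher and 1 lower. There were also 6 of the 21 mTORC1 and MYC genes (28.6%) and 5 of the 37 biogenesis genes (13.5%), beside 22.6% of all genes. The median log2 fold changes of these lists were 0.37, -0.13 and -0.02, beside -0.0037 for all genes. Whether the lists as sets differ from all genes was not tested. *Zmat3* had 10.2, 12.1 and 12.3 in WT and 17.95, 16.7 and 17.1 in *Mkx*-/- (log2 fold change 0.58, SE 0.13, adjusted p = 0.0446). *Trp53* had 19.9, 22.2 and 24.2 in WT and 30.7, 29.4 and 30.4 in *Mkx*-/- (adjusted p = 0.0717), and *Cdkn1a* had 194, 127 and 81.6 against 139, 245 and 184, with overlap. These calls rested on all libraries: without WT 2, the adjusted p was 0.0809 for *Polr1a*, 0.0814 for *Ddit4* and 0.109 for *Zmat3*, *Zmat3* lost its call whichever library was left out (0.0731 to 0.126), with the replicate block (0.0961) and with library size counted outside *Col1a1*, *Col1a2* and *Sparc* (0.0745), *Polr1a* kept it only without WT 1 or Mkx-/- 3, and *Ddit4* kept it only without WT 1, WT 3 or Mkx-/- 2.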

How the data were processed

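Total RNA of tail tendon was sequenced in 6 libraries, and per the labels and the methods of the study reads were aligned to mm9 with MapSplice. The authors deposited a table of unnormalized counts, integer read numbers for each gene symbol. How reads that fit several places were counted is not given in the sources used here. Each of the 6 columns carried the name of 1 sample. Depth (10835070 to 14160301 counts) leaves genes with few counts, such as *Rpl3l*, imprecise.

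Normalized CPM and fold changes came from edgeR 4.0.16 under R 4.3.3 (TMM, filterByExpr, quasi-likelihood fit on genotype, prior count 0.125, Benjamini-Hochberg over 14550 genes), and DESeq2 1.42.0 was an alternative. The scripts were tested on simulated data. The exact permutation test over libraries was two-sided, with a smallest p of 0.1. Retrocopies were found by name or with blastn 2.17.0 against GENCODE transcripts of mm9, best match to a listed gene, at least 80% identity over 100 bases. Start windows came from RefSeq (GRCm38.p6). Exon lengths came from GENCODE for genes with 1 record.

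The members and lists were chosen with earlier results of these data known. Named genes are the 6 with the smallest p in each direction, the 6 most and least abundant, the stalk genes and *Rpsa*, tissue-restricted copies with their parents, X-linked members, the 4 shares with the smallest p in each direction, and at most 5 of each list by p. *Rpl19*, *Rpl29*, *Rpl34*, *Rpl28*, *Rpl7a*, *Rps6*, *Rpl15*, *Cdkn1a* and the retrocopies were named after their values were seen. Alternatives were other scalings, filters, a robust fit, the replicate number as a block, added pseudogenes and each library left out. Adding all retrocopies and counting library size outside *Col1a1*, *Col1a2* and *Sparc* were chosen after seeing the data.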

Additional observations from a re-analysis of the deposited data

How the results depend on the processing

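The absence of calls among the ribosomal protein genes held under most settings, with these exceptions. A filter of 1 count in any library gave 1 gene higher (*Rpl3l*), also with a log2 fold change above 1 and relative to the pool of these genes. DESeq2 gave 1 lower (*Rps4x*), and library size counted outside *Col1a1*, *Col1a2* and *Sparc* gave 2 lower (*Rps4x* and *Rpl5*). With each library left out the count of lower genes was 0 to 1, the 1 being *Rpl27a* without WT 1. The median log2 fold change was 0.21 with library size alone and -0.17 outside *Col1a1*, *Col1a2* and *Sparc*. The log2 difference of the summed level was 0.18 with library size alone and below 0 elsewhere. Called genes of the pathway lists numbered 3, but 4 with DESeq2, 8 with library size alone and 0 to 5 with a library left out. Outside *Col1a1*, *Col1a2* and *Sparc* they also numbered 3, with *Tpt1* in place of *Zmat3*. Of the 79 genes tested, 55 turned direction under at least 1 setting, and 35 did so leaving aside library size alone. Of the 14 rerun one by one (the 6 with the smallest p in each direction, the stalk genes *Rplp0* and *Rplp1*, and *Rpsa*), those that turned were *Rpl36* with named pseudogenes added (-0.0059), *Rplp0* with library size alone (0.13), and *Rpsa* with all retrocopies added (-0.00073), outside *Col1a1*, *Col1a2* and *Sparc* (-0.080) and with a library left out (-0.27 to 0.37, below 0 without Mkx-/- 2, WT 2 or WT 3). For these single values the cause was not tested.

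Replicate numbers are shared by the genotypes, but correlations of same-numbered libraries were -0.00, -0.24 and 0.31, so the numbers were not taken as pairs. Between differently numbered libraries they ran from -0.40 (WT 1 with Mkx-/- 3) to 0.44 (WT 1 with Mkx-/- 2). What WT 1 and Mkx-/- 2 share was not tested. The replicate block left 0 ribosomal protein genes called, with a smallest adjusted p of 0.141 (*Rpl5*) in edgeR, and a median log2 fold change of -0.04. A summed level log2 difference of -0.07 and 0 genes called relative to the pool were also obtained with the block, and 2 pathway genes were called. Libraries of a group differed by 8.22 to 40.1 in chi-square per degree of freedom, so none was a repeat of another. The median standard error of the log2 fold change of a single gene was 0.15, which limits the differences that 3 libraries per group can show.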
